A study of Tupaia belangeri with 15 samples.

Results

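The nuclei described here are retinal ganglion cell (RGC) nuclei of the tree shrew (TS, *Tupaia belangeri*) that carried transcripts of the transcription factor gene *RUNX1*. A nucleus was taken as a member when it held at least 3 *RUNX1* unique molecular identifiers (UMIs, each counted once per captured transcript) together with at least 1 UMI of *RBPMS* and 1 of *SLC17A6*, fewer than 2 UMIs of *SPP1*, fewer than 3 each of *FOXP2* and *SLIT2*, and no *ARR3*. *RBPMS*, an RNA-binding protein gene, and *SLC17A6*, the gene of a vesicular glutamate transporter, are general RGC markers, *SPP1*, *FOXP2* and *SLIT2* were used to set apart other RGC groups, and *ARR3* is the cone arrestin gene. By this rule 103 nuclei were RUNX1-positive, of 3782 RGC nuclei with both general markers and no *ARR3*, and of 119765 nuclei kept in all.

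The study profiled whole retinas of 15 animals by single-nucleus RNA sequencing, 5 each in the infant, mature, and senile groups, with 1 library per retina and no treatment or genetic change. The animals were 1.4 to 2.1 months old in the infant group, 24.96 to 36.0 months in the mature group and 85.8 to 86.56 months in the senile group. Senile animals came from another supplier than infant and mature animals, so source and senile stage cannot be told apart. Per library, 13429873 to 58734300 UMIs in 4269 to 9856 barcodes were deposited, and 7 libraries (Infancy 1 to 3, Mature 1 and 2, Senile 1 and 2) were counted with Cell Ranger 6.1.2 and the other 8 with 7.0.1.

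RGCs are the output neurons of the retina. They fall into many types that differ in the layer where their dendrites branch, in the visual features they report and in the brain regions their axons reach, and transcription factors set up and maintain these differences. RUNX1 belongs to the Runt family, whose members bind DNA together with the partner protein CBFB. It is best known from blood stem cells, and in peripheral sensory ganglia it shapes the types of pain- and itch-sensing neurons. In the retina it is also expressed in microglia, the resident immune cells.

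The members held 3 to 13 *RUNX1* UMIs each, with a median of 4, and their summed level was 678 CPM (counts scaled to a common UMI total, taken over the summed nuclei of a group and used for all levels below). The nuclei were chosen by these UMI counts, which are given as a description. There were 48 nuclei with 3 UMIs, 15 with 4 and 40 with 5 or more, so more lay at the threshold than held 5 or more. The members had a median of 5386 UMIs, close to 5159 in the 2327 RGC nuclei that met the same rule but held no *RUNX1* (RUNX1-negative). Of the members, 2 (1.94%) were called doublets, against 143 (6.15%) of the RUNX1-negative nuclei. No barcode was shared between 2 members, and pairs of libraries shared 4 to 29 barcodes.

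General RGC genes that the rule did not use were mostly present in the members, some at levels near those of the RUNX1-negative nuclei and others not. *NRN1*, which encodes the axon-growth protein neuritin, stood at 297 CPM in members and 277 in RUNX1-negative nuclei. *THY1*, a cell-surface glycoprotein gene, stood at 327 and 344 CPM. *EBF1*, a transcription factor gene of RGCs, had at least 1 UMI in 100% of members, at 1775 CPM against 1742 CPM. *POU4F1*, which encodes the RGC factor BRN3A, had 57.5 CPM in members and 36.5 CPM in RUNX1-negative nuclei. *GAP43*, a growth-cone protein gene, had 149 and 70.5 CPM. *EBF2* (5.61 against 71.7 CPM), *ISL1* (28.1 against 85.1 CPM) and *NEFH*, a neurofilament gene (11.2 against 19.9 CPM), stood at lower levels in members, with the tests of *EBF2*, *ISL1* and *GAP43* given below. *POU4F2* and *NEFL* had no UMI in any of the RGC groups compared here. Of 17 listed RGC markers that the rule did not use, 3 (*POU4F2*, *POU4F3* and *NEFL*) were at 0 in members.

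Microglia, the other retinal cells with *RUNX1*, left little trace in the members. Of 13 microglia markers, 9 were at 0 in all members, including *INPP5D*, *C1QA*, *CX3CR1* and *AIF1*, and no member held UMIs of 2 of them. *C1QC* and *TMEM119*, also among the 9, were at 0 in every RGC group compared here. Their summed level ran from 0 to 43.0 CPM over the 10 retinas with at least 5 members and from 8.93 to 51.2 CPM in RUNX1-negative nuclei of 15 retinas. Summed cone markers ran from 0 to 60.5 CPM in members and from 15.6 to 98.5 CPM in RUNX1-negative nuclei, with 3 of 8 at 0 in members, of which *CNGB3* and *GUCA1A* were at 0 in every RGC group. Summed Müller cell markers ran from 126 to 973 CPM in members and from 224 to 722 CPM in RUNX1-negative nuclei, with medians of 191 and 300 CPM and none of 7 at 0. Most of this sum was *DKK3*, a secreted Wnt modulator gene, at 185 and 270 CPM, which was detected in 58.3% of members and 70.9% of RUNX1-negative nuclei. Summed horizontal cell markers ran from 105 to 196 CPM in members and from 16.4 to 243 CPM in RUNX1-negative nuclei, with medians of 156 and 112 CPM and 1 of 5 (*LHX1*) at 0 in both. Most of this sum was *ONECUT1*, a transcription factor gene that RGCs also use, at 129 CPM in members and 70.7 CPM in RUNX1-negative nuclei and detected in 55.3% and 24.4% of them. It was not called in the 4 retinas tested below and was called higher in the 10 retinas with at least 5 members (edgeR). The other detected markers of this list stood lower in members than in RUNX1-negative nuclei. These were *ONECUT2* (5.61 against 7.84 CPM), *MEGF11* (9.82 against 17.8 CPM) and *NDRG1* (9.82 against 15.2 CPM). By median, larger sums came from bipolar cell markers, at 991 CPM in members and 1288 CPM in RUNX1-negative nuclei. Amacrine cell markers summed to 961 and 1100 CPM. Most of the bipolar sum was *CA10*, at 996 and 1134 CPM. *PAX6* (512 against 418 CPM) and *GRM8* (332 against 604 CPM) made up most of the amacrine sum. The part of horizontal, bipolar or amacrine cell RNA in the results was not tested.

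Over all kept nuclei, 379 held 3 or more *RUNX1* UMIs. Of these, 141 were RGC nuclei of the rule, namely the 103 members and 38 that one of the other marker limits left out, 35 of them for *SLIT2*. Outside the RGC nuclei, 133 had neither *RBPMS* nor *SLC17A6*, and 129 of those 133 had at least 2 microglia markers. A further 49 had both RGC markers together with *ARR3*, and 56 had only 1 of the RGC markers. In 17584 cone nuclei, a cell type that should lack the gene, 52 (0.296%, 95% exact binomial interval 0.221 to 0.388%) had a *RUNX1* UMI and 1 had 3 or more, at a median of 3487.5 UMIs. In the RGC nuclei 301 (7.96%, interval 7.12 to 8.87%) had a *RUNX1* UMI, at a median of 5560.5 UMIs, a higher share than in cone nuclei. Depth and library were not matched, and the part of free RNA was not tested. These intervals cover counting error only.

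For *CBFB* and *SLC26A5*, nuclei just outside the threshold had levels near those just inside it, whereas for *ZFHX3* and *SEMA3A* the levels differed. The 65 RGC nuclei with 2 *RUNX1* UMIs had 196 CPM of *CBFB*, and the 48 with 3 UMIs had 188 CPM, against 18.5 CPM in nuclei with none. *SLC26A5*, which encodes the motor protein prestin of cochlear hair cells, stood at 178 CPM with 2 *RUNX1* UMIs and 211 CPM with 3, against 14.0 CPM with none. Even the 69 nuclei with 1 *RUNX1* UMI had 144 CPM of *CBFB* and 173 CPM of *SLC26A5*. In the other direction, *ZFHX3*, a zinc-finger homeobox gene, had 291 CPM in nuclei with none, 113 CPM with 1 UMI, 67.5 CPM with 2 and 3.77 CPM with 3. Between 2 and 3 UMIs *SEMA3A* went from 55.2 CPM to 0. With 4 and with 5 or more UMIs *ZFHX3* stood at 10.5 and 14.2 CPM and *SEMA3A* at 0 and 17.0 CPM. *MEIS2* showed no single step, at 270 CPM with none, 70.8 with 1 UMI, 141 with 2, 52.7 with 3, 94.9 with 4 and 42.6 with 5 or more. The steepest step for the higher genes thus lay between 0 and 1 UMI, below the threshold of the rule.

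**Figure D1:**
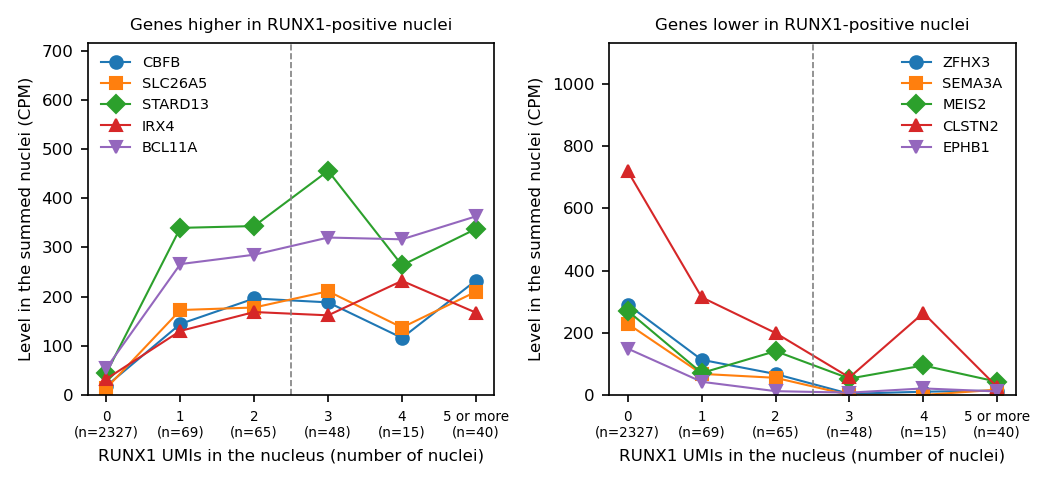
Level (CPM, linear axis, summed nuclei of each class over all retinas) of 5 genes that were higher and 5 that were lower in RUNX1-positive nuclei, against the number of *RUNX1* UMIs in the nucleus, with the number of nuclei in parentheses and a dashed line at the threshold of the rule. *CBFB* was at 18.5 CPM with no *RUNX1* UMI and at 144 CPM with 1, and *ZFHX3* fell from 291 CPM with none to 3.77 CPM with 3.

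When all 3782 RGC nuclei were clustered without any gene of the rule, 96 of the 103 members (93.2%) fell into 1 of 33 clusters. This cluster held 291 nuclei, 86.3% of which had at least 1 *RUNX1* UMI, and 40 of which had none. At a lower resolution (28 clusters) and at a higher one (40 clusters) 1 cluster again held 96 members. The non-member nuclei of the cluster had 201 CPM of *CBFB*, 198 CPM of *SLC26A5* and 164 CPM of *IRX4*, close to 204, 209 and 180 CPM in the members inside it. The 7 members outside the cluster had a higher median depth of 7999 UMIs and held 410 CPM of *CLSTN2*, a synaptic adhesion gene that stood at 36.8 CPM in members inside. *SLIT2*, which the rule limited but did not bar, was itself found in 54.2% of members inside the cluster and 85.7% of those outside it, at 120 and 147 CPM, against 18.8% and 41.6 CPM in RUNX1-negative nuclei, and stood at 249 CPM in the non-member nuclei of the cluster. Clusters and genes came from the same nuclei, so these values are a description without a test.

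**Figure D2:**
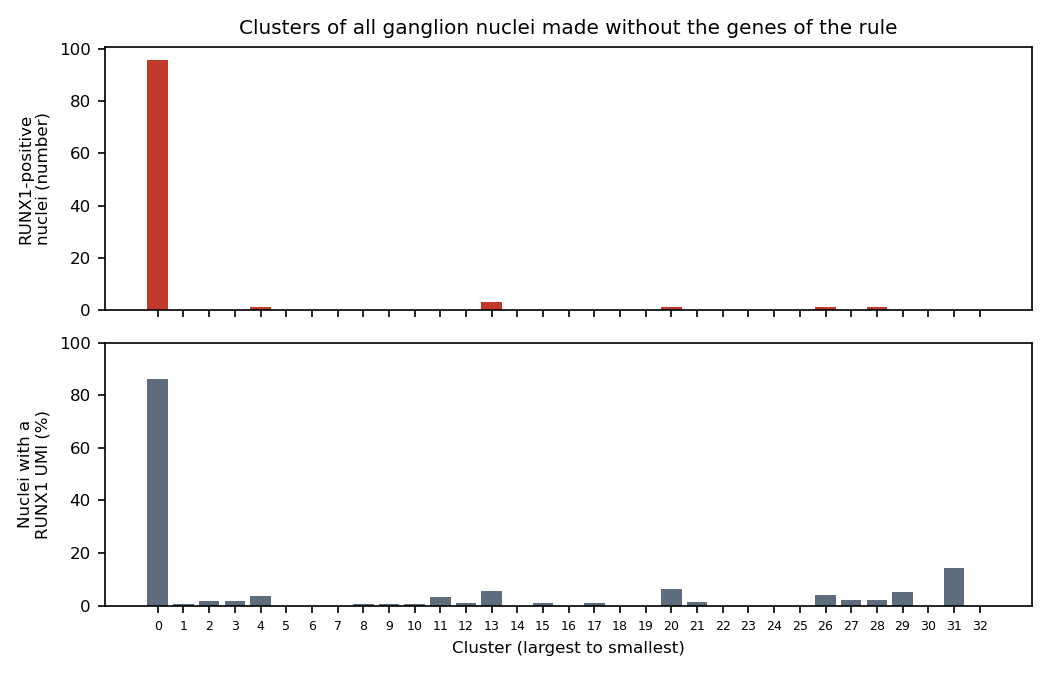
Number of RUNX1-positive nuclei (upper panel) and percentage of nuclei with at least 1 *RUNX1* UMI (lower panel) in each of 33 clusters of RGC nuclei, ordered from largest to smallest. The largest cluster held 96 of the 103 RUNX1-positive nuclei and *RUNX1* was detected in 86.3% of its nuclei.

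Between stages, the question was whether RUNX1-positive nuclei took a different share of the RGC nuclei with age. The shares in the infant retinas were 2.40, 1.89, 1.88, 2.67 and 17.2% (Infancy 1 to 5), in the mature retinas 1.57, 4.39, 2.90, 0 and 0% (Mature 1 to 5) and in the senile retinas 2.68, 2.79, 4.03, 2.27 and 5.79% (Senile 1 to 5). One infant retina stood far above all others, both mature retinas at 0 had few RGC nuclei, and the ranges of the 3 stages overlapped. The high value of Infancy 5 rested on 5 of 29 RGC nuclei (interval 5.85 to 35.8%), and the zeros on 29 nuclei in Mature 4 and 18 in Mature 5, where the floor of 3 counts corresponds to shares of 10.3% and 16.7% and the exact intervals reach 11.9% and 18.5%.

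The mean share was 5.22% ± 6.73 (SD, n = 5) in the infant group, 1.77% ± 1.90 (SD, n = 5) in the mature group and 3.51% ± 1.43 (SD, n = 5) in the senile group. The senile group differed from the mature group by 1.74 percentage points (2-sided exact permutation test, adjusted p = 0.429 over 3 stage pairs, n = 5 and 5). Mature and infant retinas differed by -3.44 points (exact permutation, adjusted p = 0.524) and senile and infant retinas by -1.70 points (exact permutation, adjusted p = 0.968). None of these differences exceeded the spread between retinas, and 0.00794 is the smallest p that 5 against 5 can give. Without Infancy 5, senile retinas were higher than infant retinas by 1.30 points (exact permutation p = 0.111) and mature retinas differed from infant ones by -0.436 points (exact permutation p = 0.690).

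Recovery of RGCs differed between the counting versions, and so did these shares, but not in the same direction in every stage. RGC nuclei made up 4.82 to 6.53% of kept nuclei in the 7 libraries of the earlier version and 0.306 to 2.34% in the 8 of the later one. Members made up 80 of 3229 RGC nuclei (2.48%) in the earlier libraries and 23 of 553 (4.16%) in the later ones. Within the earlier libraries the mean shares were 2.06% (infant, 3 retinas), 2.98% (mature, 2) and 2.73% (senile, 2), and within the later ones 9.95% (infant, 2), 0.966% (mature, 3) and 4.03% (senile, 3). The part of version and recovery in the pooled values was not tested beyond a permutation within versions, which gave adjusted p = 0.27 for senile against mature retinas. With nuclei thinned to 3000 UMIs and shallower ones left out (22415, 16205 and 23164 of all kept nuclei of the infant, mature and senile retinas), 1000, 708 and 634 RGC nuclei and 10, 7 and 12 members remained, and the means were 2.02% (infant), 0.789% (mature) and 2.10% (senile).

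Membership of the cluster gave a wider count than the threshold of 3 UMIs, and was added as an alternative after the data were seen. It took 8.27, 6.52, 9.41, 5.33 and 20.7% of RGC nuclei in Infancy 1 to 5, 4.92, 6.90, 7.25, 0 and 0% in Mature 1 to 5, and 8.04, 10.0, 12.1, 9.09 and 7.44% in Senile 1 to 5. Mature and infant retinas differed by -6.23 points in this count (exact permutation p = 0.0635, adjusted p = 0.0952). Senile and infant retinas differed by -0.707 points (exact permutation p = 0.921, adjusted p = 0.921). Every senile retina lay above every mature retina. The difference of 5.52 points had the smallest p possible (exact permutation p = 0.00794, adjusted p = 0.0238). This count was not run with same-numbered retinas as a block. Without Mature 4 and Mature 5, which held 29 and 18 RGC nuclei, it was 2.98 points (exact permutation p = 0.0357). Within the earlier version it was 3.12 points with 2 retinas a stage (exact permutation p = 0.333, the smallest possible), and within the later one 7.13 points with 3 (exact permutation p = 0.1, the smallest possible).

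**Figure D3:**
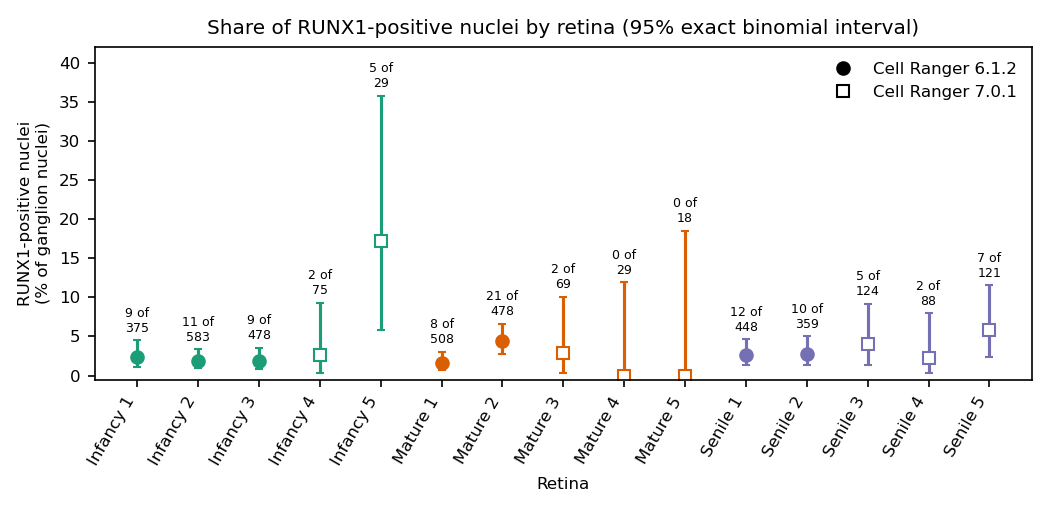
Percentage of RGC nuclei that were RUNX1-positive in each of the 15 retinas, with 95% exact binomial intervals (counting error only), the counts behind each value, and filled circles for the earlier and open squares for the later counting version. Infancy 5 lay at 17.2% from 29 RGC nuclei and the other retinas between 0 and 5.79%.

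The *RUNX1* level over all RGC nuclei, which were chosen without regard to *RUNX1*, gave no difference beyond the spread. It was 39.3, 32.6, 33.0, 15.5 and 99.96 CPM in Infancy 1 to 5, 23.1, 42.2, 47.1, 0 and 0 CPM in Mature 1 to 5, and 35.2, 53.5, 66.4, 40.5 and 48.6 CPM in Senile 1 to 5. The ranges overlapped between all stages. The log2 fold change was 0.64 ± 0.46 (SE) for senile against mature retinas (edgeR quasi-likelihood test with counting version as covariate, Benjamini-Hochberg adjusted p = 0.833), -0.51 ± 0.46 for mature against infant retinas (edgeR, adjusted p = 0.820) and 0.14 ± 0.45 for senile against infant retinas (edgeR, adjusted p = 0.993). A sum of this kind mixes the share of RUNX1-positive nuclei, given above, with the *RUNX1* level per nucleus. Among members, chosen by their *RUNX1* count, the median per retina ran from 3 UMIs (for example Senile 2) to 8 (Infancy 5). This median was not tested.

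What set RUNX1-positive nuclei apart from RUNX1-negative RGC nuclei was tested on counts summed per retina, with the retina as a block, in the 4 retinas with at least 10 members: Infancy 2, Mature 2, Senile 1 and Senile 2. Of 6501 genes tested, 492 (7.57%) passed an adjusted p of 0.05 in edgeR's quasi-likelihood test, 209 higher (3.21%) and 283 lower (4.35%) in members, with a median log2 fold change of -0.06 over all genes. The split depended on the fit, with 107 higher and 384 lower without a filter on low counts, 137 and 135 with DESeq2, 331 and 320 in the 10 retinas with at least 5 members, and 398 and 391 with a threshold of 2 *RUNX1* UMIs. A stricter count held 180 of the 209 higher and 266 of the 283 lower genes. These moved alike in all 4 retinas and reached 10 CPM in every retina of the higher group. Direction alone was not counted. Mature 2 contributed 21 members, the most of the 4, and without it 301 genes passed. The 7 rule genes stayed in the fit and its adjustment but were not counted and are given no test.

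The called genes were then examined in retinas that took no part in this fit. In 6 other retinas with 5 to 9 members, 389 of the 492 genes could be tested, 379 moved in the same direction, and 292 (75.1%) passed in that direction, against 13.5% of all genes tested there. In the 3 of them that were counted with the later version, 244 of 401 genes (60.8%) passed in the same direction, against 9.21% of all genes. No gene passed in the opposite direction in either fit.

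The gene of the Runt partner and a pair of genes known from sensory biology were among those most raised in the members. *CBFB*, the partner of RUNX proteins, stood at 203, 200, 143 and 272 CPM in RUNX1-positive nuclei (Infancy 2, Mature 2, Senile 1 and Senile 2, the order used below) and at 19.4, 10.6, 19.6 and 23.7 CPM in RUNX1-negative nuclei. Every member value lay well above every RUNX1-negative value. The log2 fold change was 3.51 ± 0.32 (SE, edgeR adjusted p = 2.4e-16), and *CBFB* was higher in all 10 retinas with at least 5 members. Here and below, counts over these 10 retinas include the 4 in which the genes were called. Agreement in those 4 was therefore not independent of the call. *CBFB* was not particular to RGCs, since 41.5% of cone nuclei held a UMI of it.

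*SLC26A5*, the prestin gene, stood at 203, 136, 317 and 303 CPM in members and at 9.20, 15.3, 16.7 and 21.2 CPM in RUNX1-negative nuclei, again with no overlap (log2 fold change 3.82 ± 0.32, edgeR adjusted p = 2.1e-18). It was detected in 70.9% of members and 7.13% of RUNX1-negative nuclei, against 0.256% of cone nuclei. *IL31RA*, a receptor gene for the itch cytokine IL-31, reached 46.9, 42.8, 95.1 and 121 CPM in members and 2.04, 1.76, 2.18 and 8.74 CPM in RUNX1-negative nuclei. With 4.40 ± 0.56 it had the largest log2 fold change among the named higher genes (edgeR adjusted p = 5.6e-10), although only 19.4% of members held a UMI of it and 8 of 10 retinas with at least 5 members were higher.

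Transcription factor genes moved in both directions. Of 24 tested genes of a list of RGC-type transcription factors, 7 were higher and 4 lower, with a median log2 fold change of 0.09. Over all 6501 genes 3.21% were higher and 4.35% lower, with a median of -0.06, which is the comparison for every list below. The lists were chosen with earlier results of these data known, and none was tested as a set. *IRX4*, an Iroquois homeobox gene, stood at 125, 235, 222 and 182 CPM in members and at 25.05, 36.4, 40.7 and 23.7 CPM in RUNX1-negative nuclei (log2 2.55 ± 0.30, edgeR adjusted p = 1.9e-11). *SOX6*, which encodes an SRY-box factor, stood at 579, 613, 792 and 757 CPM against 142, 175, 154 and 207 CPM (log2 1.97 ± 0.17, edgeR adjusted p = 2.1e-17). Neither gene overlapped between the groups. Both were higher in 10 of 10 retinas with at least 5 members, which include the 4 that gave the calls.

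Other higher genes of that list were *TFAP2D*, an AP-2 family gene (log2 1.36), *RUNX2*, a second Runt family member (1.03, but 0.64 with edgeR adjusted p = 0.18 in the 3 retinas of the later version), *RORB*, a nuclear receptor gene (0.75), and *ZFHX4*, a zinc-finger homeobox gene (0.63). The 4 lower ones were led by *ZFHX3*, at 31.3, 14.3, 0 and 0 CPM in members and 250, 372, 347 and 359 CPM in RUNX1-negative nuclei (log2 -4.67 ± 0.42, edgeR adjusted p = 7.7e-17). *MEIS2*, a TALE homeobox gene, stood at 15.6, 78.5, 15.8 and 60.5 CPM against 305, 291, 275 and 220 CPM (log2 -2.55 ± 0.32, edgeR adjusted p = 3.2e-10). *EBF2*, of the early B-cell factor family, and *ISL1*, a LIM homeobox gene of RGC differentiation, were also lower, by log2 changes of -2.15 and -1.25. The call of *ISL1* was lost in 6 of 14 alternatives and that of *EBF2* in 6 of 12, with DESeq2 among them (adjusted p = 0.225 and 0.169). *ZFHX4* did not pass with DESeq2 either (adjusted p = 0.234). Among 13 list genes that did not pass were *POU4F1* (0.23, edgeR adjusted p = 0.900), *IRX1* (0.79, adjusted p = 0.399), *SATB1* (-0.69, adjusted p = 0.0564) and *MEIS1* (-0.84, adjusted p = 0.0839).

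*BCL11A*, a zinc-finger repressor gene outside that list, stood at 328, 364, 317 and 393 CPM in members and 53.7, 59.3, 56.7 and 62.5 CPM in RUNX1-negative nuclei (log2 2.56 ± 0.22, edgeR adjusted p = 3.9e-18). The 4 retinas were nearly alike within each group. Its level in RUNX1-negative nuclei varied by less than 10 CPM.

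In the list of Runt family members, partners and corepressors, 10 genes were tested, of which *CBFB* and *RUNX2* were higher and *ETV6*, an ETS repressor gene, was lower (log2 -1.67). The call of *ETV6* held in 8 of 16 alternatives and was lost with DESeq2 (adjusted p = 0.183). The median of the list was -0.20. The corepressor genes *RUNX1T1* (log2 0.35, edgeR adjusted p = 0.265), *NCOR1* (-0.26, adjusted p = 0.726), *TLE1* (-0.59, adjusted p = 0.604) and *TLE2* (1.15, adjusted p = 0.178) did not pass. *RUNX1T1* did pass as higher in the 10 retinas with at least 5 members (0.44 ± 0.11, edgeR adjusted p = 0.00186) and against SPP1-positive nuclei (0.71 ± 0.23, edgeR adjusted p = 0.0289), whereas *RUNX2* did not pass against the latter (0.29 ± 0.29, edgeR adjusted p = 0.597). Of 19 genes known to depend on RUNX1 in pain-sensing neurons only 2 reached the level needed for a test, and neither passed in these 4 retinas: *RET*, a receptor tyrosine kinase gene (log2 1.22, edgeR adjusted p = 0.235), and *KCNIP4*, a potassium channel-interacting protein gene (0.24, adjusted p = 0.427). *KCNIP4* passed in 7 of 17 alternatives, among them the 10 retinas with at least 5 members (0.44 ± 0.09, edgeR adjusted p = 0.000105), and was higher than in SLIT2-positive nuclei by 2.18 ± 0.13 (edgeR adjusted p = 6.9e-14).

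*RELN*, which encodes the layering glycoprotein reelin, stood at 1642, 1698, 2123 and 1241 CPM in members and 340, 270, 406 and 311 CPM in RUNX1-negative nuclei (log2 2.32 ± 0.15, edgeR adjusted p = 3.6e-26). It was found in every member. The GTPase-activating protein genes *STARD13* (501, 285, 523 and 212 CPM against 38.3, 35.8, 53.0 and 41.2 CPM, log2 3.18 ± 0.22) and *ARHGAP24* (log2 2.43 ± 0.21) both passed. Further named higher genes were *KIRREL3*, an immunoglobulin-family adhesion gene (log2 3.45), *ZNF474*, a zinc-finger gene (3.32), *MEGF10*, a receptor gene of retinal mosaic spacing (2.93), *THSD7B*, a thrombospondin-repeat gene (2.86), *PTGES*, a prostaglandin E synthase gene (2.70), and *TMEM26*, a transmembrane protein gene (2.28). The transporter-like feature *ABCC1liN* (2.22) has a copy-like name, so its reads may be shared with a related gene.

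**Figure D4:**
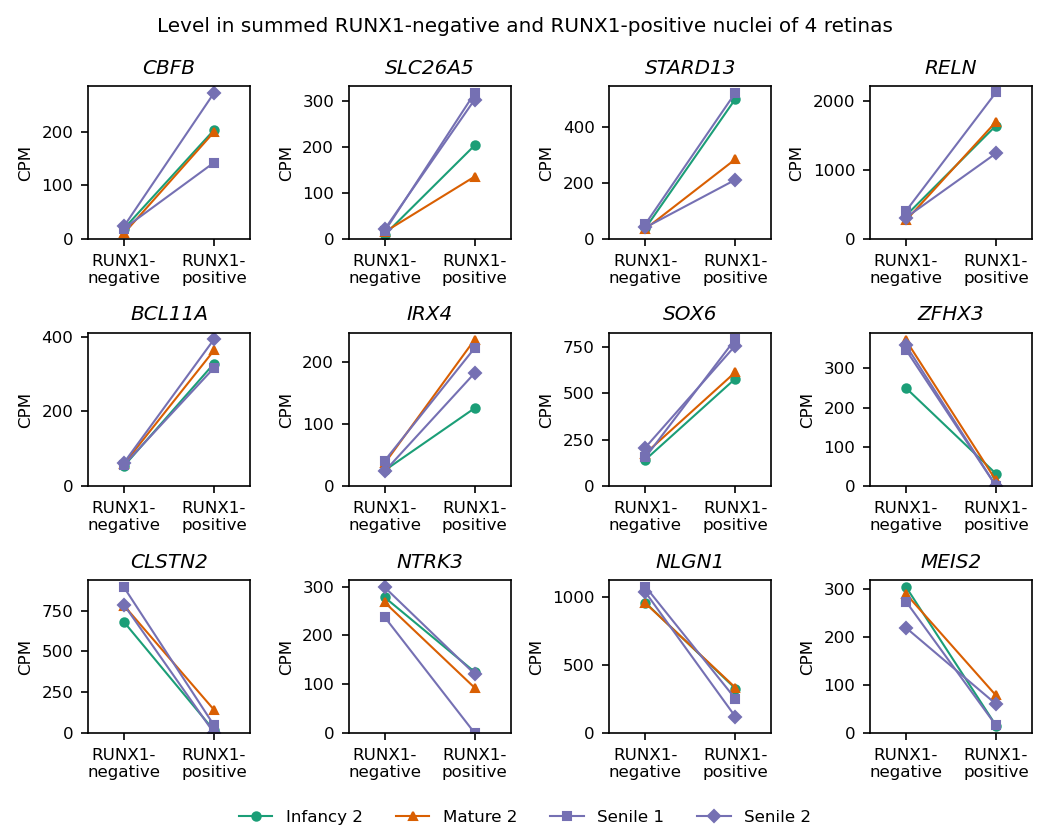
Level (CPM, linear axes from 0) of 12 genes in the summed RUNX1-negative and RUNX1-positive nuclei of the 4 retinas with at least 10 members, with 1 line per retina and colour by stage. For the first 7 genes every RUNX1-positive value lies above every RUNX1-negative value, and for the last 5 every one lies below.

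The most reduced genes had 0 or few UMIs in the members of these 4 retinas. *EGFEM1* had no UMI in the members of the 4 retinas and 70.5, 102, 106 and 89.9 CPM in RUNX1-negative nuclei, at least 9.09-fold lower when the floor of 3 counts over the group is used. *PLOD2*, a collagen lysyl hydroxylase gene, was at least 4.70-fold lower, *PPP1R1C*, a phosphatase inhibitor gene, at least 3.12-fold, and *NR2F1*, a COUP-family nuclear receptor gene, at least 2.78-fold, each with 0 UMIs in these members. Over all 103 members, a UMI of *NR2F1* was found in 4.85%, of *EGFEM1* and *PLOD2* in 1.94% each and of *PPP1R1C* in none. *PLOD2* was lower in 9 of the 10 retinas with at least 5 members and reached 55.6 CPM in 1 of them, above the median of 49.7 CPM in RUNX1-negative nuclei. With DESeq2 *NR2F1* (adjusted p = 0.0882) and *PPP1R1C* (adjusted p = 0.0543) did not pass, and they lost the call in 3 of 10 and 2 of 8 alternatives.

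*SEMA3A*, which encodes a secreted axon repellent, had 0, 7.13, 0 and 0 CPM in members and 252, 197, 257 and 160 CPM in RUNX1-negative nuclei. The 7.13 CPM were 1 UMI, and the ratio of the summed levels was 0.0148 (95% counting interval 0.000375 to 0.0827). *TLL1*, a tolloid-like protease gene, rested on 2 UMIs with a ratio of 0.0362 (0.00438 to 0.131), and *STK32A*, a kinase gene, on 2 with 0.0567 (0.00686 to 0.206). *FAM163A*, a membrane protein gene, had 3 UMIs (0.0873, 0.0180 to 0.256) and *TRPC7*, a cation channel gene, had 2 (0.0982, 0.0118 to 0.357). *LRRC3B*, a leucine-rich repeat gene, *GRIA1*, an AMPA receptor subunit gene, and *ABHD3*, a phospholipase gene, had 1 UMI each, with ratios of 0.0652 (0.00165 to 0.366), 0.0704 (0.00178 to 0.396) and 0.0715 (0.0018 to 0.401). *ABHD3* passed in 9 of 12 alternatives and not with DESeq2 (adjusted p = 0.0645), and it was lower in 9 of the 10 retinas with at least 5 members. *CDH20*, a cadherin gene, had 28.5 CPM in Mature 2 and 0 in the other 3 retinas, against 126 to 157 CPM (log2 -3.44 ± 0.50, edgeR adjusted p = 3.8e-08). It was less reduced in other sets of retinas, by -1.88 ± 0.29 in the 10 with at least 5 members and by -1.02 ± 0.38 (edgeR adjusted p = 0.0917) in the 3 of the later version, and 16.5% of all members held a UMI of it, with 126 CPM in the highest of the 10 retinas.

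Among non-coding, antisense and numbered features 49 were higher and 53 lower. The pair with the largest change, *ZNF385D-AS-2* (log2 -8.83) and *LINC-CWC22-8* (log2 -7.66), was lower. An antisense feature and its partner cannot be told apart where counting ignores strand.

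Receptor genes for glutamate, the main excitatory transmitter of the retina, moved in both directions. Of 19 tested, 6 were higher and 5 lower, with a median log2 fold change of -0.09. *GRIK2*, a kainate receptor subunit gene, stood at 1736, 1783, 2519 and 2209 CPM in members and 709, 581, 769 and 926 CPM in RUNX1-negative nuclei (log2 1.43 ± 0.14, edgeR adjusted p = 2.4e-15). The kainate subunit gene *GRIK3* (log2 1.30) and the auxiliary kainate subunit gene *NETO2* (1.68) were also higher, as were *GRIN2A*, an NMDA receptor subunit gene (1.03), and *GRM7*, a metabotropic receptor gene (1.27). The AMPA receptor subunit genes *GRIA1*, as above, and *GRIA3* (-1.55) were lower, along with *GRID1* (-1.13) and the metabotropic receptor genes *GRM5* (-0.64) and *GRM8* (-0.74). The last 3, *GRID1*, *GRM5* and *GRM8*, did not pass with DESeq2. The AMPA subunit genes *GRIA2* (0.34, edgeR adjusted p = 0.321) and *GRIA4* (0.23, adjusted p = 0.492) did not pass, but *GRIA4* was higher in the 10 retinas with at least 5 members (0.38 ± 0.09, edgeR adjusted p = 0.000917) and against FOXP2-positive nuclei (0.45, edgeR adjusted p = 0.0431).

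Of 19 tested genes of receptors for GABA, glycine, acetylcholine and other transmitters, 4 were lower and 1 was higher, with a median of -0.15. *GABRB2*, a GABA-A receptor subunit gene, stood at 125, 150, 111 and 182 CPM in members and 530, 400.5, 505 and 483 CPM in RUNX1-negative nuclei (log2 -1.76 ± 0.23, edgeR adjusted p = 8.5e-10). *CHRNA6*, a nicotinic receptor subunit gene, was lower too (-1.59). The glycine receptor subunit gene *GLRA2* was higher, at 235, 243, 349 and 333 CPM against 90.5, 101, 123 and 136 CPM (log2 1.32 ± 0.22), and neither *GLRA2* nor *GABRB2* overlapped between the groups. *GABRA2* (-0.11, edgeR adjusted p = 0.878) did not pass.

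Over all genes tested 4.35% were lower and 3.21% higher, with a median of -0.06. Of 16 tested calcium channel genes, 4 were lower and none higher, with a median of -0.50. These were *CACNA1C* (log2 -1.29) and *CACNA1D* (-0.79), which encode L-type pore subunits, *CACNA2D3* (-1.67), an auxiliary subunit gene, and *CACNB4* (-0.57), a beta subunit gene. *CACNA1D* and *CACNB4* did not pass with DESeq2. *CACNA1C* stood at 46.9, 99.9, 238 and 90.8 CPM in members and 277, 312, 244 and 266 CPM in RUNX1-negative nuclei, with the value of Senile 1 just below the lowest RUNX1-negative one.

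Of 30 tested sodium, potassium and HCN channel genes, 3 were higher and 4 lower, with a median of 0.16. The higher ones were *KCNH1* (log2 1.12) and *KCNH7* (0.87), of the ether-à-go-go family, and *KCNJ3*, an inward rectifier gene (0.86). *KCNH8*, of the same family, was lower (-1.52), as were *KCNMA1*, the BK channel gene (-1.31), and the interacting protein genes *KCNIP1* (-2.67) and *KCNIP2* (-2.15), the last of which did not pass with DESeq2. No sodium channel gene passed in the 4 retinas, with *SCN2A* at 0.25 (edgeR adjusted p = 0.582) and *SCN8A* at 0.21 (adjusted p = 0.658). *SCN3A* was lower in the 10 retinas with at least 5 members (-0.40 ± 0.13, edgeR adjusted p = 0.0178), and *SCN2A* was higher than in SLIT2-positive nuclei (0.61 ± 0.18, edgeR adjusted p = 0.0197).

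Of 35 tested axon guidance genes, 4 were higher and 10 lower, with a median of -0.21. *ROBO2*, a Slit receptor gene and one of the most abundant transcripts, stood at 13795 to 20912 CPM in members and 6143 to 8490 CPM in RUNX1-negative nuclei (log2 1.08 ± 0.13, edgeR adjusted p = 2.9e-11). Its relative *ROBO1* was lower, at 93.8, 221, 15.8 and 90.8 CPM against 388, 270, 505 and 294 CPM (log2 -1.46 ± 0.26, edgeR adjusted p = 1.1e-05). *ROBO1* did not pass with DESeq2 (adjusted p = 0.182). *SEMA6A* (1.10), a transmembrane semaphorin gene, *PLXNC1* (1.05), a semaphorin receptor gene, and *GPC6* (0.78), a glypican gene, were higher.

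*EPHB1*, an ephrin receptor gene known for guiding axons at the optic chiasm, stood at 0, 35.7, 0 and 0 CPM in members and 132, 143, 171 and 152 CPM in RUNX1-negative nuclei (log2 -3.18 ± 0.47, edgeR adjusted p = 7.0e-08). The other lower genes were *SEMA3A*, *SEMA3E* (log2 -2.32), *SEMA5A* (3 UMIs, ratio 0.101, interval 0.0209 to 0.298), *PLXNA2* (-1.90), *NTNG1* (-1.83), *UNC5D* (-1.76), *CHL1* (-2.17) and *NRCAM* (-1.45), which encode semaphorins, a semaphorin receptor, netrin-related proteins and L1-family adhesion proteins. *PLXNC1*, *SEMA3E* and *CHL1* did not pass with DESeq2. *DCC*, a netrin receptor gene, did not pass with edgeR (-0.21, adjusted p = 0.529).

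Among 46 tested genes of adhesion and lamination, 12 were higher and 16 lower, with a median of -0.03. *CNTN3*, a contactin gene, stood at 1689, 1369, 1869 and 2028 CPM against 396, 383, 485 and 533 CPM (log2 1.90 ± 0.14, edgeR adjusted p = 1.25e-21), and *CNTNAP4*, a contactin-associated protein gene, at 313, 235, 253 and 303 CPM against 70.5, 82.2, 78.5 and 83.7 CPM (log2 1.73 ± 0.23). *NLGN1*, a neuroligin gene of excitatory synapses, stood at 328, 335, 253 and 121 CPM against 962, 959, 1081 and 1039 CPM (log2 -1.85 ± 0.19, edgeR adjusted p = 3.7e-14). None of these genes overlapped between the groups.

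The 2 sidekick genes, *SDK1* (log2 1.13) and *SDK2* (1.32), whose proteins direct lamination in the retina, were both higher, as were *TENM1* (1.27) and *FLRT2* (1.41), while *TENM3* (-0.71) and *DSCAML1* (-1.54) were lower. *SDK2* was at 0 in the members of Senile 2. Cadherins went both ways, with *CDH18* (0.78) higher and *CDH7* (-1.08), *CDH8* (-2.62), *CDH10* (-2.99) and *CDH20* lower, and so did protocadherins, with *PCDH8* (1.52), *PCDH17* (0.91) and *PCDH11X* (0.81) higher and *PCDH9* (-1.66), *PCDH10* (-1.08) and *PCDH15* (-1.22) lower. *SDK2*, *CDH7*, *PCDH10*, *PCDH11X* and *PCDH15* did not pass with DESeq2, and *PCDH15* was lower in only 6 of 10 retinas with at least 5 members.

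Of 12 tested markers of RGC types, *CALB1*, the calbindin gene, was higher, at 235, 171, 158 and 333 CPM against 41.9, 42.3, 57.4 and 57.5 CPM (log2 2.06 ± 0.27, edgeR adjusted p = 1.4e-09), and 5 were lower, *SPON1* (-2.30), *KCNIP2*, *CDH8*, *ROBO1* and *CHRNA6*, of which *SPON1*, *KCNIP2* and *ROBO1* did not pass with DESeq2. The median of the list was -0.65. *CALB2*, the calretinin gene (0.21, edgeR adjusted p = 0.817), and *PVALB*, the parvalbumin gene (-1.03, adjusted p = 0.441), did not pass.

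Of 19 tested survival and growth genes, *NTRK2*, the BDNF receptor gene (log2 0.62), and *GAP43* (1.23) were higher, and *NTRK3*, the neurotrophin-3 receptor gene (-1.72), and *FGF14*, a fibroblast growth factor homologue (-0.53), were lower, with a median of -0.05. *NTRK3* stood at 125, 92.7, 0 and 121 CPM against 278, 268, 238 and 299 CPM, with no overlap. In the glaucoma gene set, which the study took from a public database of disease genes, 3 of 27 tested genes were higher (*NTRK2*, *SNCG*, *COL11A1*) and 2 lower (*SLC4A4*, *VEGFA*), with a median of -0.06, and *COL11A1* and *VEGFA* did not pass with DESeq2. Of 8 developmental genes *STMN1*, a tubulin-binding protein gene, was higher (0.89), but in the 10 retinas with at least 5 members it did not pass (0.49, edgeR adjusted p = 0.129), nor with DESeq2 in the 4 retinas, and *DCX*, the doublecortin gene (-0.999, adjusted p = 0.0160), and *ELAVL2*, an RNA-binding protein gene (-0.53, adjusted p = 0.0115), were lower there. In the 4 retinas 0 of 18 respiratory chain genes and 0 of 2 immediate early genes passed, and the medians of these 3 lists were -0.49, -0.08 and -0.12.

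The members were then set against the RGC nuclei with *FOXP2*, *SLIT2* or *SPP1* in the same retinas, of which the series held 372, 580 and 162. Against FOXP2-positive nuclei (4 retinas), 305 of 2028 genes passed (15.0%), 137 higher in members (6.76%) and 168 lower (8.28%). Against SLIT2-positive nuclei (4 retinas), 481 of 3316 passed (14.5%), 241 higher (7.27%) and 240 lower (7.24%). Against SPP1-positive nuclei (Infancy 2, Mature 2 and Senile 2), 316 of 1410 passed (22.4%), 176 higher (12.5%) and 140 lower (9.93%). All comparisons share the same member nuclei, so their values are given side by side and not as support for each other.

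*SLC26A5*, *CBFB*, *STARD13*, *BCL11A* and *RELN* were higher in the members in all 4 comparisons. For *SLC26A5* the log2 fold change was 2.65 ± 0.32 against FOXP2-positive, 4.35 ± 0.34 against SLIT2-positive and 3.71 ± 0.78 against SPP1-positive nuclei (edgeR adjusted p = 3.6e-06, 2.2e-11 and 0.0013). For *CBFB* it was 2.09 ± 0.31, 2.68 ± 0.32 and 3.42 ± 0.58 (edgeR adjusted p = 3.6e-05, 9.5e-08 and 0.0002). *ZFHX3* was lower in each, by log2 changes of -4.38 ± 0.45, -4.80 ± 0.42 and -4.63 ± 0.48, and it was at 284, 347 and 444 CPM in the FOXP2-, SLIT2- and SPP1-positive nuclei of the 4 retinas against 13.3 CPM in members.

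Other genes differed by the group of comparison. Levels here and below are sums over the 4 retinas, whereas the fit against SPP1-positive nuclei left out Senile 1. Levels and log2 changes for that group therefore rest on different retinas. *IRX4* was at 66.6 CPM in FOXP2-positive nuclei and at 5.32 and 8.11 CPM in SLIT2- and SPP1-positive nuclei, against 203 CPM in members (log2 1.49, 5.05 and 4.17). *CALB1* was at 17.5, 114 and 99.0 CPM in these groups against 200 CPM in members (log2 3.44, 0.76 and 1.62). *CNTN3* was nearly as abundant in FOXP2-positive nuclei as in members (1209 against 1615 CPM, log2 0.44 ± 0.13, edgeR adjusted p = 0.0201) and lowest in SPP1-positive nuclei (99.0 CPM, log2 3.78). *GRIN2A* was at 237 CPM in FOXP2-positive nuclei, the lowest of the groups, against 1748 CPM in members (log2 2.86 ± 0.21).

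Against FOXP2-positive nuclei the named higher genes also included *TFAP2D* (log2 2.71), *VEGFC*, a lymphangiogenic growth factor gene (2.68), *PCDH17* (2.62), *C8ORF34* (2.62) and *GPC6* (2.45). Named lower ones were *EGFEM1*, *STK32A*, *ZFHX3*, *FAM163A*, *SORCS1*, a sorting receptor gene (-3.97), *TMEM108*, a transmembrane protein gene (-3.97), and *MID1*, a ubiquitin ligase gene. *SORCS1* was found in 97.0% of FOXP2-positive nuclei and stood at 983 CPM there against 63.3 CPM in members.

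Against SLIT2-positive nuclei *IRX4* led the higher genes, followed by *SLC26A5*, *STARD13*, *C8ORF34* (log2 3.88), *KIRREL3* (3.75), *ABCC1liN*, *GULP1*, an engulfment adaptor gene (3.42), and *SOX6* (3.36). Named lower genes were *BNC2*, a zinc-finger gene, and *PDGFD*, a growth factor gene, each with 1 UMI in the members of the 4 retinas, *SEMA3A*, *ZFHX3*, *CDH10* (-4.74), *FAM163A*, *EPHB1* (-4.30) and *ERBB4*, a neuregulin receptor gene (-4.04). *CDH10* stood at 367 CPM in SLIT2-positive nuclei and 13.3 CPM in members. SLIT2-positive nuclei were also the deepest, with a median of 7858 UMIs, and with nuclei thinned to equal depth, which left 3 retinas, 305 of 2486 genes passed. The part of depth in single genes was not tested further.

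Against SPP1-positive nuclei the higher named genes were *ABCC1liN*, *IRX4*, *STARD13*, *CNTN3*, *SLC26A5*, *BCL11A* (log2 3.52), *KIRREL3* (3.51) and *CBFB*. The lower ones included *SST*, the somatostatin gene, at 277 CPM in SPP1-positive nuclei and with no UMI in any member, *SPARCL1*, an extracellular matrix protein gene (-3.98), *CLSTN2* (-3.91), *CDH20* (-3.77) and *KLHL1*, an actin-binding protein gene (-3.76). *TLL1*, at 516 CPM in SPP1-positive nuclei, and *ZFHX3* were also among the lower ones. Without Mature 2 this comparison called 140 genes and without Infancy 2 it called 209.

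**Figure D5:**
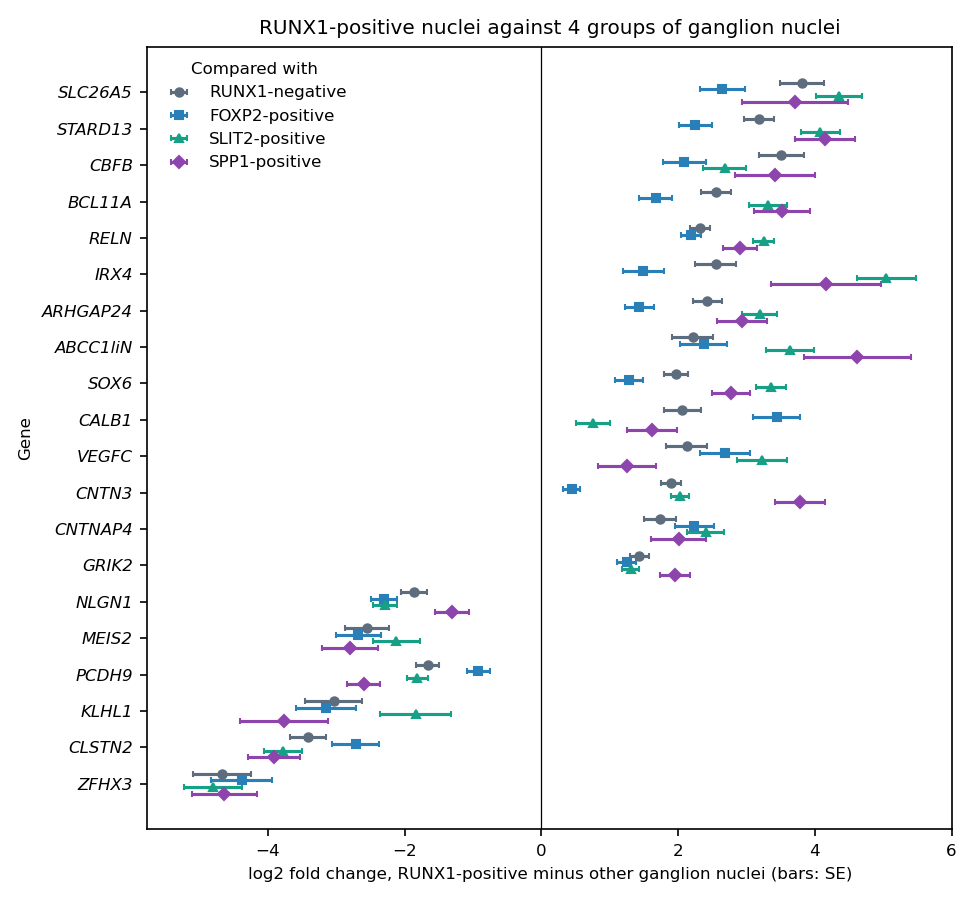
Log2 fold change (bars, SE) of 20 genes in RUNX1-positive nuclei against RUNX1-negative (circles), FOXP2-positive (squares), SLIT2-positive (triangles) and SPP1-positive nuclei (diamonds) of the same retinas, on counts summed per retina (edgeR). *SLC26A5* was higher by 2.65 to 4.35 and *ZFHX3* ranged from -4.38 to -4.80 over the 4 comparisons.

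Within the RUNX1-positive nuclei the stages could be compared in 4 retinas with at least 10 members, 1 infant, 1 mature and 2 senile. Of 1618 genes tested, 3 passed for senile against infant retinas (0.185%), 2 higher (0.124%) and 1 lower (0.0618%), and 0 for mature against infant and 0 for senile against mature retinas with edgeR (63 and 74 at an unadjusted p under 0.05, and with DESeq2 0 adjusted with 3 and 2 unadjusted). With 1 retina in each of the younger stages, mature against infant compares 1 retina with 1, and the spread rests on the 2 senile retinas and is assumed to hold for the others, so neither the calls nor the zeros of this fit are read further. When retinas with at least 5 members were used (4 infant, 2 mature and 4 senile), 1 of 1288 genes passed for senile against infant (0.0776%) and 1 for mature against infant (0.0776%), and 0 for senile against mature retinas (60 at an unadjusted p under 0.05, 16 with DESeq2).

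That gene was *SPTLC1li7*, a numbered copy named after a serine palmitoyltransferase gene, in both comparisons. It had 3 UMIs in 36 infant members, 79 UMIs in 31 mature members and 112 UMIs in 36 senile members. The log2 fold change in members was 4.94 ± 0.59 for senile against infant (edgeR adjusted p = 6.1e-06) and 4.89 ± 0.66 for mature against infant retinas (edgeR adjusted p = 5.9e-05). Over all RGC nuclei, members included, it was also higher (4.98 ± 0.30 and 3.47 ± 0.30, edgeR adjusted p = 1.6e-08 and 6.7e-06), where 132 of 11322 genes passed for senile against infant retinas (1.17%) and 87 for mature against infant (0.768%). Reads of a numbered copy can be shared with its relatives, so its identity is uncertain.

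The other 2 genes of the smaller fit did not pass with more retinas. *GLIS3*, a zinc-finger transcription factor gene, stood at 46.0, 0, 39.9 and 110 CPM in the 4 infant retinas with at least 5 members and at 285, 303, 139 and 108 CPM in Senile 1, 2, 3 and 5, so the stages overlapped (log2 1.77 ± 0.60 for senile against infant retinas, edgeR adjusted p = 0.564), and *CNTN4*, a contactin gene, differed by -0.85 ± 0.36 (edgeR adjusted p = 0.976).

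Whether stage acted differently on RUNX1-positive and RUNX1-negative nuclei was tested as an interaction. In the 4 retinas, with the same limit of 1 retina in the younger stages, edgeR called 0 of 6501 genes (239 at an unadjusted p under 0.05). It called 1 of 3391 (0.0295%) in the 10 retinas with at least 5 members, *CSMD1*, which encodes a complement-regulating membrane protein. In members *CSMD1* stood at 46.0, 46.9, 757 and 221 CPM in Infancy 1, 2, 3 and 5, at 0 and 243 CPM in Mature 1 and 2, and at 15.8, 0, 0 and 10.8 CPM in Senile 1, 2, 3 and 5. The RUNX1-negative nuclei of the same retinas held 408 to 1112 CPM (infant), 962 and 854 CPM (mature) and 702 to 1057 CPM (senile). The difference of the stage effects was log2 -5.08 ± 0.94 (edgeR adjusted p = 0.00386). In Infancy 3, 5 of 9 members held a UMI of it and 1 nucleus held 19 of the 38 UMIs, and over the mature members 1 nucleus held 32 of 34 UMIs.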

How the data were processed

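Nuclei of 15 retinas were sequenced with 10x Genomics 3′ chemistry. The authors used Cell Ranger with genome build TS_3.0 and deposited raw UMI counts per feature and barcode. File headers give versions 6.1.2 and 7.0.1, and the submitters' processing notes give 5.0.1 in place of 6.1.2. Whether intronic reads were counted is not given in the sources used here. Barcodes with over 200 and under 6000 genes and under 5% mitochondrial UMIs were kept, 119765 of 120437. Doublets were called by simulated neighbours at 8 per 1000 nuclei for every 1000 nuclei, and were kept except in an alternative.

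The members, gene lists and tests were chosen with earlier results of these data known. Counts were summed per retina and group from 10 nuclei on and tested with edgeR 4.0.16 (R 4.3.3, TMM, filterByExpr, quasi-likelihood, Benjamini-Hochberg over all genes tested). The model had the retina as block for groups of nuclei, or stage and counting version for stages. In the fit of 4 retinas that version did not vary. DESeq2 1.42.0, thinning to 3000 UMIs (shallower nuclei left out), other thresholds and left-out retinas were alternatives. Shares were compared by 2-sided exact permutation. RGC nuclei were clustered on 2000 variable genes, 30 components and 15 neighbours (leidenalg 0.10.2). Simulated data had changes only in genes averaging at least 10 counts, 1 dispersion for all genes and no retina effect. Recovery of genes with fewer counts is not covered. On simulated data with 6582 genes the comparison with RUNX1-negative nuclei recovered 63% of 4-fold and 15% of 2-fold changes with 1 false call. From 5 nuclei per retina (3557 genes) it recovered 49% and 38%, with 3 false calls. For senile against infant members (1547 genes) it recovered 69% and 22%, with 1 false call, and from 5 nuclei per retina (1175 genes) 97% and 68%, with 7 false calls.

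Named genes passed an adjusted p of 0.05, moved alike in every retina compared, reached 10 CPM in every retina of the higher group and were no numbered, antisense or unnamed feature. The 15 largest changes each way were named against RUNX1-negative nuclei and 8 each way against other groups, besides list genes and the noncoding pair with the largest change. Some genes that met this rule are not reported here. Same-numbered retinas had a higher median correlation than others but did not deviate together in every case. Their correlations were -0.31 to 0.57 over 15 pairs (median 0.34, 3 under 0.1), against a median of -0.21 for 60 other pairs. Numbers were not treated as pairs in the main tests. The replicate block was an alternative and was not run for the shares of the cluster. Sex was not in the labels and not used. For stages and shares, p-values measure the spread between animals, 1 retina each. For groups of nuclei, they measure how far the difference within a retina varied between retinas.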

Additional observations from a re-analysis of the deposited data

Results flagged for a closer look

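Values were flagged when 1 retina stood apart within a group of 4 or 5 retinas, when 2 groups differed in their stage effect, or when a signal lay outside the nuclei compared. Of 62 groups of retinas searched, 10 held a retina that stood apart. A gene with UMIs in only 1 of 4 retinas is always flagged, so no chance rate is given for these flags.

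Infancy 5 stood apart in share and in level. RUNX1-positive nuclei made up 17.2% of its 29 RGC nuclei, against 2.67% in the next infant retina, and its *RUNX1* level over all RGC nuclei was 99.96 CPM, against 39.3 CPM in the next. Its 5 members had a median of 17209 UMIs, the deepest of all retinas.

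*IL31RA* reached 8.74 CPM in the RUNX1-negative nuclei of Senile 2, against 2.18 CPM in the next retina. *TMEM26* reached 206 CPM in the members of Senile 1, against 78.2 CPM in the next. In the members of Mature 2, *SEMA3A*, *LRRC3B*, *GRIA1* and *ABHD3* stood at 7.13 CPM each, which is 1 UMI, *TRPC7* at 14.3 CPM and *CDH20* at 28.5 CPM, while the other 3 retinas were at 0. Mature 2 has the most members, 21.

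*CSMD1* differed in its stage effect between RUNX1-positive and RUNX1-negative nuclei in the 10 retinas with at least 5 members (log2 -5.08 for senile against infant retinas, edgeR adjusted p = 0.00386). In the 4 retinas with at least 10 members the difference was log2 -2.02 (edgeR adjusted p = 1). A UMI of it was found in 15 of 36 infant, 3 of 31 mature and 2 of 36 senile members.

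Outside the RGC nuclei of the rule, 42 nuclei held at least 3 *RUNX1* UMIs, no *ARR3* and only 1 of *RBPMS* and *SLC17A6*. None of the 42 had 2 or more microglia markers, 97.6% had a UMI of *EBF1*, 54.8% of *IRX4* and 57.1% of *SLC26A5*. In RUNX1-negative RGC nuclei these genes were found in 94.4%, 14.0% and 7.13%. *IRX4* and *SLC26A5* were found in 66.7% and 71.9% of members inside the cluster and in 0.233% and 0.256% of cone nuclei. The median depth of the 42 nuclei was 5049 UMIs.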

How the results depend on the processing

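Against RUNX1-negative nuclei, DESeq2 called 272 genes, thinning, which left 3 retinas, 306, a threshold of 2 *RUNX1* UMIs, which admitted 7, 789, later-version retinas with at least 5 members 304, and thinning at that minimum 275, while leaving out 1 retina gave 301 to 420. DESeq2 called 167 against FOXP2-positive, 295 against SLIT2-positive and 158 against SPP1-positive nuclei, thinning 305 (3 retinas) and 189 (2 retinas) against the latter pair, and leaving out 1 retina 140 to 347 against SPP1-positive nuclei. No named gene reversed. Of 419 alternative values of the genes with the largest changes against RUNX1-negative nuclei 13 no longer passed, and 4 of 95 against SPP1-positive nuclei. Of 85 other called list genes, 27 were lost with DESeq2, 3 of 82 in the 10 retinas with at least 5 members, and 38 passed in every alternative run.

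Within members, senile against infant retinas gave 0 genes with DESeq2, and 2 with DESeq2 from 5 nuclei per retina. From 5 nuclei per retina they gave 1, also with stage alone, 5 with the replicate block, 5 with a threshold of 2 UMIs, and 1 to 10 without 1 retina (10 without Mature 1 and 7 without Mature 2). Mature against infant retinas gave 1 with no filter, 1 from 5 nuclei, 1 with 2 UMIs, 1 with each further model from 5 nuclei (replicate block, stage alone, DESeq2, 2 UMIs) and 1 without each retina left out. Senile against mature retinas gave 1 with no filter and 0 to 2 without 1 retina. The interaction gave 1 from 5 nuclei.

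The share difference of senile and infant retinas reversed to 0.0125 points over all kept nuclei, to 0.0803 points after thinning and, without 1 retina, ranged from -2.54 to 1.30 points. Mature against infant retinas ranged from -4.28 to -0.436 points without 1 retina, the latter without Infancy 5. Senile against mature retinas passed with the cluster as the group, by 5.52 points. Without Mature 4 and 5 the difference was 2.98 points (exact permutation p = 0.0357, not adjusted). With thresholds of 2 and 5 *RUNX1* UMIs this pair stood 2.85 points apart (exact p = 0.0397, 0.119 once adjusted) and 0.759 points apart (exact p = 0.556), against 1.74 points at 3 UMIs, and senile against infant retinas differed by -0.817 and -0.856 points and mature against infant ones by -3.67 and -1.62 points. The *RUNX1* level of senile against infant retinas ranged from -0.12 to 0.61 (log2) without 1 retina, and was 0.16 with the replicate block. Senile against mature retinas ranged from 0.48 to 1.02 (1.02 without Mature 2, and 0.98 with DESeq2) and mature against infant retinas from -0.93 without Mature 2 to -0.14 without Infancy 5 (-0.92 with DESeq2). The replicate block gave exact p = 0.875, 0.5625 and 0.25 for the shares (senile against infant, mature against infant, senile against mature). The cause of these changes was not tested. A minimum of 20 nuclei, and left-out retinas, thinning or the replicate block in the stage fit from 10 nuclei, gave no fit.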

Other observations

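The 92 nuclei with at least 3 *RUNX1* UMIs but no *RBPMS*, *SLC17A6* or *ARR3* carried another set of genes than the members. *CSF1R*, the receptor gene that microglia need to survive, was found in 79.3% of them, *PTPRC*, the CD45 gene of blood-derived cells, in 81.5% and *INPP5D*, a lipid phosphatase gene of immune cells, in 88.0%. *CBFB*, the RUNX partner gene, was found in 48.9%, while *EBF1*, present in every member, was found in 5.43% and *IRX4* in 1.09%. Their median depth of 2616 UMIs was lower than that of the members. These nuclei were grouped here by detection of the same gene, and no test was run.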
